A study of Mus musculus with 2 samples.

Results

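The Notch genes described here are 9 members, the receptors Notch1, Notch2 and Notch3, the ligands Jag1 and Jag2, and the target genes Hes1, Hey1, Hey2 and Heyl, out of 18193 genes named on the array. They were chosen by name, with earlier results of these data known. Every probe set (a group of array probes for 1 transcript) whose annotation named only 1 of them was read. This gave 17 probe sets. RNA came from primary osteoblasts, the bone-forming cells, released by collagenase and dispase from calvariae, the bones of the skull roof, of C57BL/6 mice 5 days old. The cells grew for 3 days in medium with serum and spent a night without it. They then stood for 6 h in a-MEM lacking serum, at pH 7.2, with phosphate at 1 mM in the control or at 4 mM in the treated culture. Because the stock (0.5 M) was a sodium salt, sodium was raised together with phosphate. No genotype or drug other than phosphate is named for either group, and the number of mice behind each culture is not given in the sources used here.

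Notch receptors are surface proteins that are cut when a Jagged or Delta-like ligand on a neighbouring cell binds them. An ADAM protease cuts first, then the gamma-secretase complex frees the intracellular domain, which enters the nucleus and joins the DNA-binding protein RBPJ and a Mastermind coactivator. Their best known targets encode the HES and HEY proteins, basic helix-loop-helix repressors of transcription. In the osteoblast lineage, Notch signalling is known to restrain differentiation, and HES and HEY proteins can bind the bone regulator RUNX2. The study set the transcripts of osteoblasts in raised phosphate against those in plain medium after some hours.

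The promoters of 3 HES and HEY family genes hold the DNA word that RBPJ recognises, and they are printed because all 3 genes had dim signals on both arrays. The word is GTGGGAA, searched on both strands from 250 bases before to 50 bases after the start site in the RefSeq promoter table of GRCm38.p6, and no other word was searched. It stands in capitals below, either as GTGGGAA or as its reverse complement TTCCCAC, and each sequence is written 5′ to 3′ on the strand of the gene.
Hey2, chr10:30842781-30843033, minus strand: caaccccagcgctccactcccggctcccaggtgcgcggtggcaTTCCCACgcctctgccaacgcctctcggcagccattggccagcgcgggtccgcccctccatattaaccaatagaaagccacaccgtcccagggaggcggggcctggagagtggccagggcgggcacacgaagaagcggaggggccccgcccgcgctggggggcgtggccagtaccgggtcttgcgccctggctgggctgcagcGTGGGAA
Hes5, chr4:154960673-154960922, plus strand: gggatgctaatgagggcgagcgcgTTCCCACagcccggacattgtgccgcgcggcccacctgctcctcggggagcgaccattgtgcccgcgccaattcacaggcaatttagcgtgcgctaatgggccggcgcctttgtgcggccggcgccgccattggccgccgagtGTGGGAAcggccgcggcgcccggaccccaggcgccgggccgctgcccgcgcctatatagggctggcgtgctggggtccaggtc
Hes7, chr11:69120203-69120452, plus strand: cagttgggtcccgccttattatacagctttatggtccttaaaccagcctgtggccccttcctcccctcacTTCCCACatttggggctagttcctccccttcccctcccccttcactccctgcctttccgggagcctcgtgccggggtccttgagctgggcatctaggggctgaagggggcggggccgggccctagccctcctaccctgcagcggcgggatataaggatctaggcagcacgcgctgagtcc

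The Hey2 promoter held the word at positions -207 to -201 and again at -4 to 3, counted from the start site at 1. Hes5 held it at -226 to -220 and at -83 to -77, and Hes7 at -180 to -174. Of all 32851 promoters in the table, 6.38% held the word at least once and 0.256% at least 2 times. Of the 6 members with an entry (Notch1, Notch2, Notch3, Jag1, Jag2 and Hey2), Hey2 was the only promoter with the word. Hes1, Hey1 and Heyl were not in the table. Among 99 promoters of other pathway genes, 6 (6.06%) held the word, close to the 6.38% of all promoters. They belonged to 6 of 69 genes, namely Hes5, Hes7, Lfng, Psen2, Aph1a and Spen. A match is a string of letters and does not show binding.

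With 1 array a condition, replicate error could not be estimated and no test was run, so precision is limited by the number of arrays. A floor was set at 21.5, the median over the signals of the 2 arrays together, and lower signals took its value, and a gene was called measured if its probe set with the highest mean signal was above it on at least 1 array. The share of the 45037 mouse probe sets above the floor was 49.0% in the control and 51.0% in phosphate. There were 12241 measured genes, and the treated culture had 279 of them (2.28%) higher by 2-fold or more and 358 (2.92%) lower by 2-fold or more. With the 24 poly-A spike probe sets (bacterial RNAs added before labelling) set equal, these became 129 and 1561, because the phosphate array had the brighter spikes (median log2 ratio 0.46). The median of all genes then moved from -0.06 to -0.51. Probes differ in how well they bind, so signals were compared between arrays for the same probe set and not between genes. The only error at hand was technical. Among probe sets that share a gene, log2 ratios had a standard deviation (SD) of 0.42 for dimmer signals up to 100, of 0.26 from 100 to 400, and of 0.16 beyond 400. This SD compares probe sets on the same 2 arrays. It leaves out differences between arrays or cultures that the probe sets of a gene share.

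The cells carried osteoblast markers on both arrays. All 6 of the 8 listed markers with a probe set of their own (Sp7, Col1a1, Col1a2, Alpl, Ibsp and Pth1r) were above the floor on each, and none differed by 1.5-fold. In the wider list of 12 osteoblast genes, 8 were measured and 1 was past 2-fold, the osteocyte matrix gene Dmp1, which went from 5505 to 15708 (2.85-fold higher) and was also higher on its other probe sets (log2 ratios of 2.38 and 1.68). Endothelial cells, which also use Notch, were little seen, with 9 of 10 markers below the floor on both arrays, Pecam1, Cdh5, Kdr and Tek among them. The remaining marker, Egfl7, gave -0.87 as log2 ratio on its chosen probe set (60.4 and 33.0) but was higher in phosphate on its other 3, by 0.14 and by bounds of at least 1.63-fold and at least 1.17-fold. Of 10 markers of pericytes and vascular smooth muscle, a list that includes Notch3, 9 were measured, and the list's summed signal was 13981 in the control and 12958 in phosphate. Most of that sum was Acta2 (10336 and 9328), and single genes differed both ways, with Kcnj8 at -0.62 and Cspg4 at 0.52. Macrophage and osteoclast markers were above the floor on both arrays for 10 of 10 genes. Of these, 9 had log2 ratios below 0, against 55.9% of all measured genes. Their summed signal was 8857 in the control and 7647 in phosphate, of which Ctsk, the gene with a ratio above 0, gave 4097 and 4376, and their median log2 ratio was -0.56. The chosen probe set of Csf1r gave -0.56, and its dimmer ones gave -0.55 and 0.15. All 8 cartilage markers were measured and lay within 1.5-fold, and of 8 skeletal muscle markers 5 were below the floor on both arrays, Myod1 and Myog among them. The muscle actin gene Acta1 went from 55.9 to 21.5, at the edge of the floor, and was 2.59-fold lower. The other measured muscle markers were higher, Des from 22.6 to 27.0 and Ckm from 15.4, under the floor, to 24.8. The summed signal of the muscle list was 114 in the control and 136 in phosphate.

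Of the 9 members, 8 were measured, 1 was lower by 2-fold or more (2.92% of all measured genes) and 0 were higher by 2-fold or more (2.28%). The member past 2-fold was Hey1. Of the other 7 measured members, 6 lay within 1.5-fold, and Jag2 was past 1.5-fold as a lower bound, where 19.4% of all measured genes were past 1.5-fold in either direction. The members' median log2 ratio was 0.19 against -0.06 for all measured genes, and with the poly-A spikes set equal the same medians were -0.27 and -0.51. In bulk RNA, fewer cells of a type and less RNA per cell cannot be told apart.

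**Figure D1:**
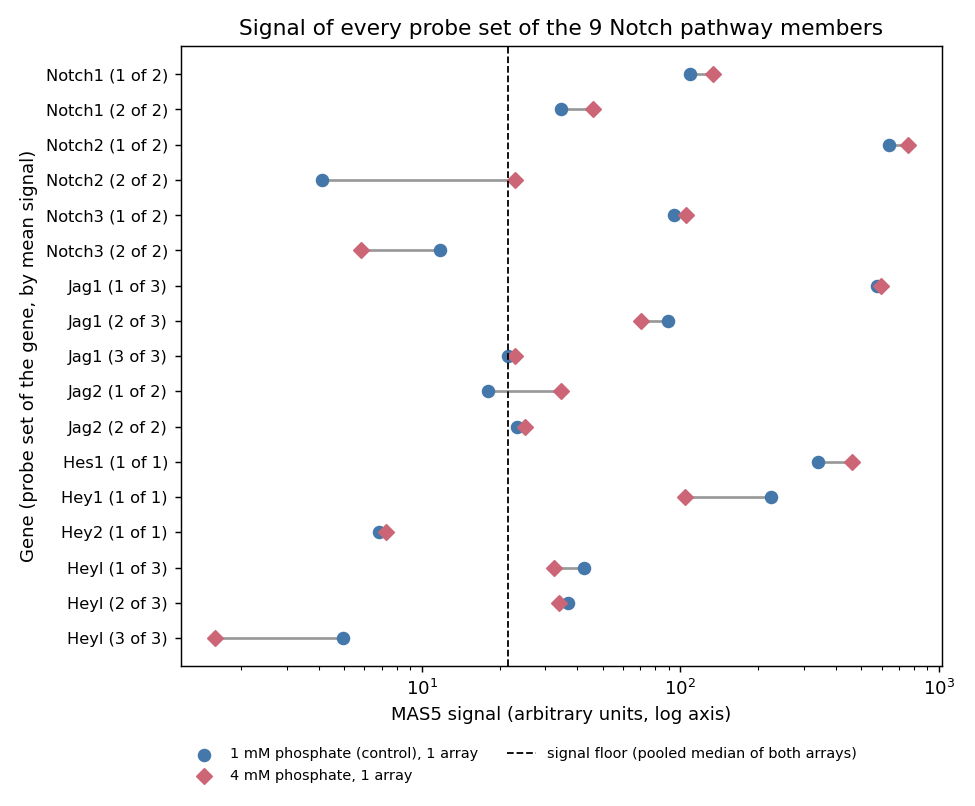
MAS5 signal (log axis, arbitrary units) of each of the 17 probe sets of the 9 members, numbered within a gene by mean signal; circles are the 1 mM control array, diamonds the 4 mM phosphate array, 1 array each, and the dashed line is the floor of 21.5. Hey1 went from 224 to 104, the widest gap among the 12 probe sets with both signals above the floor, and Hey2 lay below it on each array.

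The receptors differed little. Notch1, a receptor of many lineages, gave signals of 109 (control) and 134 (phosphate), a log2 ratio of 0.30. Its dimmer probe set went from 34.6 to 45.9, a log2 ratio of 0.41. Both probe sets were thus higher on the phosphate array, by about the technical SD of their signal class (0.26 and 0.42).

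Notch2, a receptor whose truncating mutations cause a human disorder with bone loss, had signals of 641 and 755, a log2 ratio of 0.24 against a technical SD of 0.16. Its second probe set was below the floor in the control (4.10) and just above it in phosphate (23.0), which gives a bound of at least 1.07-fold higher. Notch3, a receptor best known in vascular smooth muscle, had signals of 94.2 and 105, a log2 ratio of 0.15. Its second probe set was below the floor on both arrays (11.8 and 5.82). The values of all 3 receptors were higher in phosphate, and all 3 turned lower with the poly-A spikes set equal, at -0.16, -0.23 and -0.31.

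Jag1, a ligand that osteoblasts present to neighbouring cells, had nearly the same signal on both arrays, 577 and 596, a log2 ratio of 0.04. Its other probe sets did not share a direction, with 89.4 and 70.6 (-0.34) on the second and 21.6 and 22.9 (0.08), both at the edge of the floor, on the dimmest. With the spikes set equal Jag1 was at -0.42.

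Jag2, the other Jagged ligand, was dim throughout. Its chosen probe set, under the floor in the control (18.0), gave 34.6 in phosphate, a bound of at least 1.61-fold higher. Its other probe set gave 23.4 and 25.0, a log2 ratio of 0.10. The probe sets of Jag2 therefore agreed in sign but not in size, and at signals this close to the floor the technical SD was 0.42.

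Hey1, a target gene whose repressor protein acts in osteoblasts and blood vessels, gave 224 in the control culture and 104 in phosphate. It was 2.16-fold lower, a log2 ratio of -1.11, against a technical SD of 0.26 in its signal class. The array held 1 probe set for Hey1, so no second probe set was at hand to set beside it. Of the 12241 measured genes, 246 (2.01%) had a lower ratio than Hey1. Among 4064 genes whose dimmer signal lay between 100 and 400, 85 (2.09%) were at least 2-fold lower. The phosphate signal of Hey1, 104, was close to the limit of 100 between classes. In the dimmer class the technical SD was 0.42, and 7.01% of 3094 genes were at least 2-fold lower. Hey1 was lower in each of the 9 alternatives, from -0.97 with a pseudocount in place of the floor, which ends the 2-fold call, to -1.57 with the spikes set equal. The macrophage and osteoclast markers were lower on the same array, with a median of -0.56, and their part in the value of Hey1 was not tested.

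Hes1, the classical Notch target in many tissues, lay on the other side of 0. Its signal was 341 in the control and 459 in phosphate, a log2 ratio of 0.43 on the 1 probe set it had, against a technical SD of 0.26. Of all measured genes, 11.4% had a higher ratio. With the spikes set equal Hes1 was at -0.03, still above Hey1 at -1.57. The 2 target genes with signals above 100 on both arrays thus differed in opposite directions under the authors' scaling.

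Heyl, another HEY family gene, was dim and slightly lower in phosphate. Its signals were 42.2 and 32.4, a log2 ratio of -0.38, and its second probe set gave 36.8 and 34.0, a log2 ratio of -0.11. Its dimmest probe set was below the floor on both arrays (4.95 and 1.59). Both ratios were smaller than the technical SD of 0.42 for such signals.

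Hey2, best known from heart and artery development, was below the floor on both arrays, with 6.86 and 7.28 on its 1 probe set, and no ratio is given. The other promoters printed above were chosen because their genes were dim as well. Hes5 was at 13.0 and 11.4 and Hes7, a gene of the segmentation clock, at 2.54 and 5.73, all below the floor. Of the other genes whose promoters held the word, Lfng, Psen2, Aph1a and Spen were above the floor on both arrays, so the word occurred in genes of either state.

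**Figure D2:**
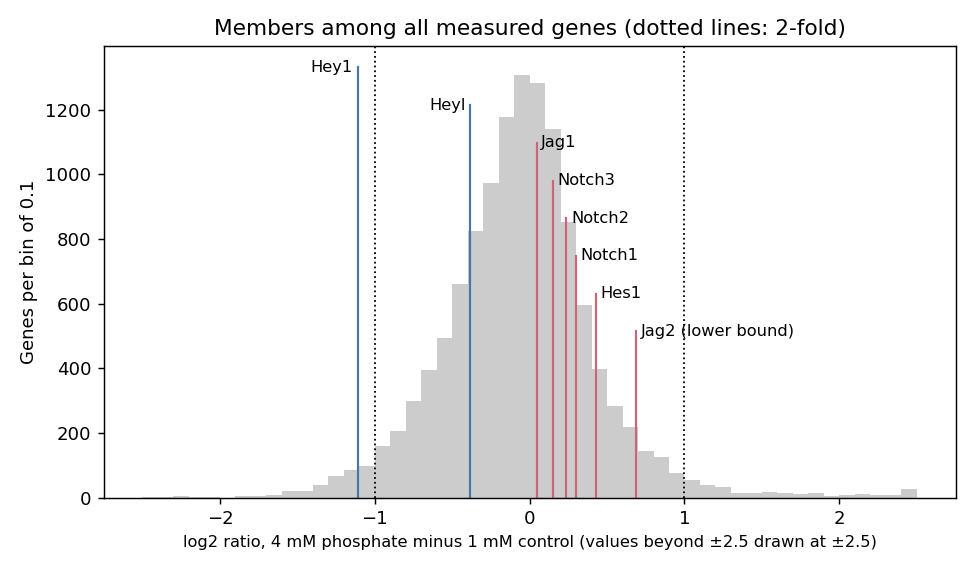
Histogram of log2 ratios (4 mM phosphate minus 1 mM control) of the 12241 measured genes in bins of 0.1, with a line at the ratio of each of the 8 measured members; line heights only separate the names, and dotted lines mark 2-fold. Hey1 at -1.11 is the member beyond 2-fold, Heyl lies at -0.38, and the other 6 lie above 0 under the authors' scaling; with the poly-A spikes set equal, 5 of these 6, all but Jag2, fall below 0.

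Beyond the members, 90 other genes of the pathway were listed by role, 83 of them with a probe set of their own, and 72 were measured. Of these, 2 were past 2-fold upward and 0 downward, against 2.28% and 2.92% of all genes. Within 1.5-fold lay 60 of the 72 (83.3%), close to the 80.6% of all measured genes. The median of the 72 genes was -0.13.

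Among other receptors and ligands, 8 of 9 measured genes had log2 ratios below 0, with a median of -0.36. Of all genes, 55.9% were below 0. After quantile normalization 7 of the 9 were below 0. Notch4, the endothelial receptor, was at 26.8 in the control and below the floor in phosphate (17.9), which makes it at least 1.25-fold lower. Dll4, an endothelial ligand, was below the floor in the control (15.9) and at 31.1 in phosphate, at least 1.45-fold higher. Dll1 and Dll3 were below the floor on both arrays, so of the Delta-like ligands only Dll4 gave a ratio.

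Of the non-classical ligands, Egfl7 (-0.87, with its other probe sets higher) was the gene of the list past 1.5-fold, and the others were lower by less. Dner, a transmembrane Notch ligand described in neurons, went from 647 to 505 (-0.36), with -0.26 on its other probe set. The microfibril genes Mfap2 and Mfap5, whose proteins can bind Jagged1 and Notch1, were at -0.37 and -0.49. Ccn3, a secreted protein that binds Notch1, was at -0.32, and the Delta-like homologues Dlk1 and Dlk2 at -0.18 and -0.47. Each of these genes other than Egfl7 lay within 1.5-fold.

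Of 8 measured genes that glycosylate or process the receptors, 7 were below 0, against 55.9% of all genes. The median of these 8 genes was -0.28. Quantile normalization left 7 of 9 below 0, and loess correction 6 of 8. Pofut1, which adds the O-fucose that ligand binding needs, went from 409 to 226 (-0.85), and Poglut1, which adds O-glucose, from 634 to 404 (-0.65). These were the 2 genes of the list past 1.5-fold. A dimmer probe set of Pofut1 gave -0.22. Its dimmest gave 35.5 and, under the floor in phosphate, 11.1, a bound of at least 1.65-fold lower. The Fringe gene Lfng, whose enzyme extends O-fucose and changes ligand choice, was dim at 39.8 and 26.8 (-0.57). The highest were the xylosyltransferase genes Gxylt1 (0.09) and Xxylt1 (-0.02).

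On their chosen probe sets, all 7 measured genes of the ADAM proteases and gamma-secretase were below 0, with a median of -0.25, although after quantile normalization or loess correction 2 of the 7 were above 0. Aph1b and Psen2, both of gamma-secretase, were lowest at -0.82 and -0.57, but the other probe set of Aph1b gave 0.08. The other probe sets of Aph1a (0.23 and 0.50) and Adam17 (0.22 and 0.13) were above 0 as well, so the sign rested on the chosen probe set for 3 of the 7 genes. The proteases Adam17 and Adam10, which make the first cut, were at -0.01 and -0.12, and Ncstn, the nicastrin gene, was at -0.02.

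In the nuclear complex all 7 measured genes lay within 1.5-fold. Rbpj itself went from 590 to 516 (-0.19) on its chosen probe set, while its other probe sets gave 0.41 and 0.23, so the direction of Rbpj was not settled. The coactivator genes Maml1 and Crebbp were highest at 0.29 and 0.24, although 2 of the 4 probe sets of Crebbp were lower (-0.43 and -0.26), and Rbpj and Snw1 (-0.14) were lowest. Of 12 measured corepressor genes, 6 were above and 6 below 0. Spen, the corepressor that binds RBPJ, and Ctbp2 were highest at 0.50 and 0.42, and the Groucho family genes Tle2 and Tle4, whose proteins HES repressors recruit, were lowest at -0.79 and -0.33.

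Among 16 measured genes of trafficking and turnover, the median was -0.12. Numbl, a homologue of the Notch inhibitor Numb, went from 76.3 to 125 (0.71), and the Deltex gene Dtx2 was at 0.60 with -0.16 on its other probe set. Dtx4 and the ubiquitin ligase gene Fbxw7, which marks the Notch intracellular domain for breakdown, were lowest at -0.46 and -0.38.

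The last list held the other HES family genes and genes that Notch can induce, of which 13 were measured, with a median of 0.17. Bhlhe40, a repressor of a related helix-loop-helix family that also responds to many other signals, went from 415 to 1354, 3.27-fold higher. Snai1, a repressor of epithelial genes, went from 80.5 to 167, 2.08-fold higher, which became less than 2-fold with the poly-A spikes set equal, a floor at 100 or a pseudocount. These were the 2 genes of the pathway lists past 2-fold on their chosen probe sets, and neither had another probe set to set beside it. Nfkb2 went from 60.9 to 106 (0.80), with 1.15 on its dimmer probe set (32.1 and 71.3). Ccnd1, the cyclin D1 gene, was lowest at -0.85, with -0.96 and -0.82 on its other probe sets, and Snai2 was at -0.63 with -1.35 on its dimmer probe set.

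Within that list the direct Notch feedback gene Nrarp was below the floor on both arrays (17.6 and 17.8), as were Hes2, Hes3, Hes5, Hes7 and Bhlhe41. Hes6, whose protein opposes HES1, went from 371 to 300 (-0.31), with -0.41 on its other probe set. Of the HES and HEY genes with a probe set, Hes1, Hes6, Hey1 and Heyl were thus the ones with both signals above the floor.

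**Figure D3:**
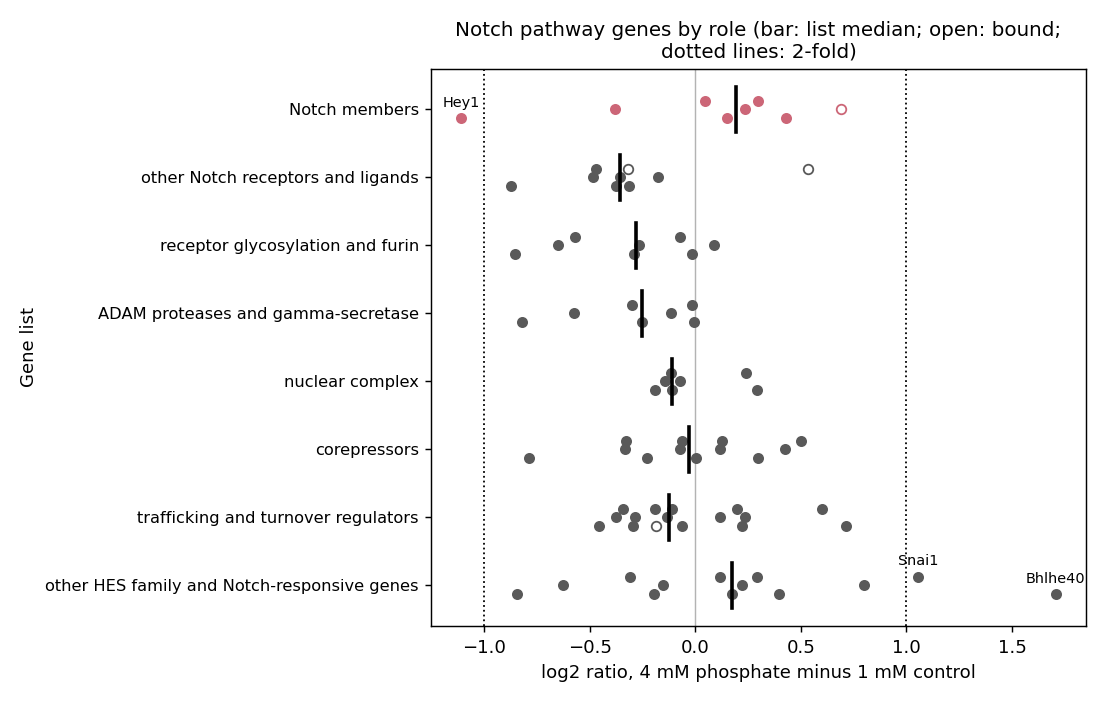
Log2 ratio (4 mM phosphate minus 1 mM control) of each measured gene of the Notch members and the 7 lists of other pathway genes; bars are list medians, open circles are bounds with 1 array below the floor, and dotted lines mark 2-fold. Hey1 (-1.11), Snai1 (1.06) and Bhlhe40 (1.71) lie past 2-fold, and the other lists' medians range from -0.36 to 0.17 under the authors' scaling, all below 0 with the poly-A spikes set equal.

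**Figure D4:**
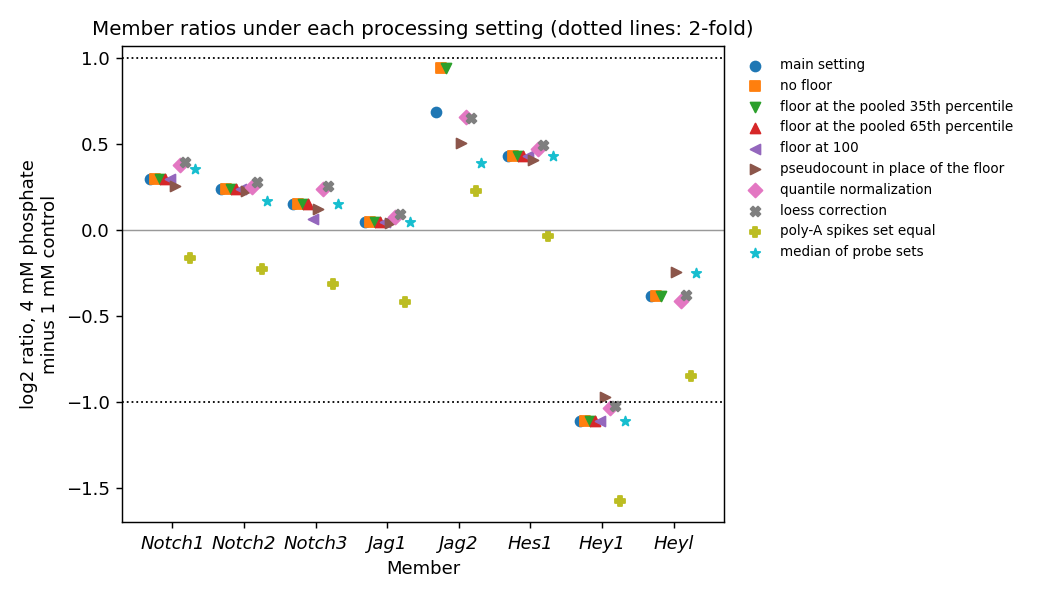
Log2 ratio of each of the 8 measured members under the main setting and 9 alternatives; dotted lines mark 2-fold, and Jag2 and Heyl have no point where a higher floor left them unmeasured. Hey1 ranges from -1.57 to -0.97 and stays the lowest member, while Notch1, Notch2, Notch3, Jag1 and Hes1 change sign with the poly-A spikes set equal.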

How the data were processed

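The authors deposited linear intensity values, a MAS5 signal for each probe set and array from GCOS 1.4, per the submitters' processing notes. Label protocols give 100 ng of total RNA made into biotin-labelled cRNA. Trimmed of 2% of probe sets at each end, the mean was 200.001 on each array, so scaling hides a change in total mRNA per cell. Of 45037 probe sets, 34945 named 1 gene, 932 several and 9160 none, and only the first were used. Entrez identifiers were looked up in the RefSeq table of GRCm38.p6 for current symbols. A gene was represented by the probe set whose log2 signal before the floor had the highest mean. Where 1 array was below the floor, the ratio is a bound. Log2 ratios are phosphate minus control. Groups came from the labels, and counts used ratios of 2-fold and 1.5-fold, with no test. Detection calls were not used here. Python 3.11.15 with pandas 2.3.3 and statsmodels 0.14.6 was used, and the ratio step was tested on simulated data. Every member was named. From the 7 lists of other pathway genes, receptors and ligands, the 2 highest and 2 lowest genes and any gene past 2-fold were named. Adam10, Lfng, Aph1a, Hes6, Nfkb2, marker and osteoblast genes and genes below the floor were added after their values were seen. The members and lists were chosen with earlier results of these data known.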

Additional observations from a re-analysis of the deposited data

Results flagged for a closer look

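Poly-A spike probe sets are outside every gene comparison, and 24 of 24 were brighter on the phosphate array. Their median log2 ratio was 0.46, with a range of 0.20 to 0.65.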

How the results depend on the processing

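The 9 alternatives changed the floor, the scaling or the choice of probe set, 1 at a time. Hey1 was lower in each, and 8 of them kept 1 member at least 2-fold lower; a pseudocount in place of the floor left 0, with Hey1 at -0.97. No member was at least 2-fold higher in any. With the poly-A spikes set equal, Hey1 was at -1.57, the members' median at -0.27, and 129 genes were higher and 1561 lower, against 279 and 358 in the main setting. Over all genes, no floor gave 2126 higher and 1841 lower, the floor at the pooled 35th percentile 557 and 575, at the 65th percentile 183 and 164, and at 100 156 and 119, and the pseudocount 216 and 171. Of the other pathway genes, no floor gave 4 higher and 1 lower, the spikes 1 higher and 8 lower, and the floor at 100 and the pseudocount 1 higher each, against 2 and 0. Floors at 100 and at the 65th percentile left Jag2 and Heyl unmeasured. A lower floor admits dim probe sets, whose ratios vary more; the cause of the other shifts was not tested. No paired analysis was possible because each group held 1 sample, and no sample could be left out. Signal over background limits Jag2, Heyl and Hey2.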
